A study of Mus musculus with 3 samples.

Results

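A set of 10 prostanoid genes was examined in mesangial cells sorted from adult mouse glomeruli: Ptgs1, Ptgs2, Ptges and Ptgis for synthesis, and Ptger1, Ptger2, Ptger3, Ptger4, Ptgir and Tbxa2r for receptors. Genes were taken by symbol, from probe sets that carry exactly 1 symbol after an update by Entrez gene number. Of the 10 genes 9 were measured, among 19938 genes with a symbol in all, of which 18687 remained once families taken as silent were set aside and are called the named genes below, and each of the 9 had 1 probe set. Ptgs1, for the constitutive cyclooxygenase, is not analysed here. Mesangial cells fill the space between the capillary loops of the glomerulus, resemble pericytes and can contract.

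The cells came from male adult CD-1 mice with the reporter transgene Tg(Meis1-EGFP)FO156Gsat, in which Meis1 regulatory sequence on a bacterial artificial chromosome drives green fluorescent protein. Cortex was digested with collagenase, glomeruli were passed through a 100 µm mesh and held on a 40 µm mesh, and trypsin-dissociated cells were sorted by fluorescence. The 3 samples, called 1, 2 and 3, are 1 kidney each, unpooled, and the labels place them in glomerular and extraglomerular mesangium. There is 1 group, every sample carries the transgene, and no other cell population was profiled, so no test between conditions was possible. Whether the kidneys came from separate mice is not given in the sources used here, and the spread below is that between these samples, which may be partly technical.

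Prostanoids are lipid mediators made from arachidonic acid. Phospholipases free the acid from membranes, cyclooxygenases turn it into prostaglandin H2, and terminal synthases make prostaglandin E2, prostacyclin or thromboxane A2 from that. Each product acts on G protein-coupled receptors: EP2, EP4 and the prostacyclin receptor raise cAMP, EP3 mainly lowers it, and EP1 and the thromboxane receptor raise calcium. In the glomerulus, thromboxane A2 contracts mesangial cells, while prostaglandin E2 and prostacyclin oppose vasoconstrictors.

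In the sorted cells the prostaglandin E2 receptor gene Ptger4 stood far above background in every sample, whereas the inducible cyclooxygenase gene Ptgs2 and the prostaglandin E synthase gene Ptges did not pass the background threshold in any. The receptor genes Ptger1, Ptgir and Tbxa2r passed by between 1.01 and 1.48 on the log2 scale, and Ptger2 and the prostacyclin synthase gene Ptgis by less than 1. Ptger3 lay below the threshold. All values are deposited log2 signals, and probe sets differ in affinity, so each is set against the threshold and genes are not ranked against each other by amount.

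The threshold of an array was the 95th percentile of its 1267 probe sets for families taken as silent. These were keratin-associated proteins and the receptors for odorants, pheromones and trace amines. Whether single members of them are expressed in these cells was not tested. It was 7.48, 7.46 and 7.41 in samples 1, 2 and 3, and a gene was called above it only if it passed on all 3 arrays. By this rule 58.0% of the 18687 named genes were called, against 4.72% of the silent reference genes. The share of the silent genes follows from the percentile chosen and is not a measured rate of false calls. With 1 added to each threshold, called the raised threshold below, the shares were 32.7% and 0.959%. Of the 9 prostanoid genes 6 passed the threshold and 4 the raised threshold. Their median distance from it, taking the lowest array of each gene, was 0.49, against 0.29 over all named genes. With so few genes, these shares lie near those of all named genes and are given as a description.

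**Figure D1:**
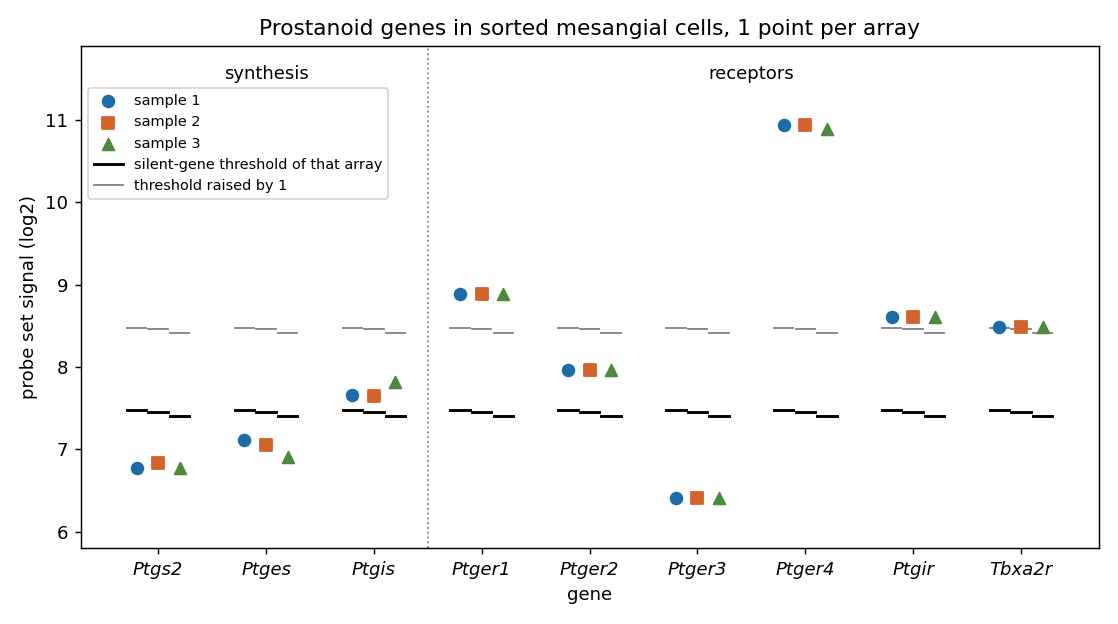
Log2 probe set signal (vertical axis) of the 9 measured prostanoid genes (horizontal axis), 1 point per array; black bars are the silent-gene threshold of each array and grey bars the threshold raised by 1. Ptger4 sits near 10.9 in all 3 samples, and Ptgs2, Ptges and Ptger3 lie under the black bars in every sample.

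Synthesis genes lay near the threshold. Ptgs2 (probe set 10350516), the cyclooxygenase gene that stimuli switch on, had 6.78, 6.84 and 6.78 in samples 1, 2 and 3, a mean of 6.80 ± 0.03 (SD, n = 3). Relative to the threshold these were -0.70, -0.62 and -0.63, under it in every sample, and between 183 and 203 of the 1267 silent probe sets had a value at least as high. Tissue dissociation is known to induce immediate early genes, of which Ptgs2 is 1. Of the 10 genes of a list of such genes all 10 passed the threshold and 3 the raised threshold: Jun at 9.69 ± 0.20, Dusp1 at 10.91 ± 0.12 and Zfp36 at 9.49, identical on the 3 arrays. Among all named genes 58.0% passed the threshold and 32.7% the raised threshold. The part of dissociation in the Ptgs2 value was not tested.

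Ptges (probe set 10481518) encodes the inducible microsomal synthase that makes prostaglandin E2. Its values were 7.11, 7.05 and 6.91 in samples 1, 2 and 3, a mean of 7.02 ± 0.10 (SD, n = 3), with sample 3 lowest. The gene was under the threshold in all 3 samples, at -0.37, -0.41 and -0.49 relative to it. Its range over the samples, 0.19, was the widest among the 9 genes, and 15.4% of all named genes had a range at least as wide.

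Ptgis (probe set 10489878) encodes prostacyclin synthase, an enzyme known from endothelium and smooth muscle. It had 7.66, 7.65 and 7.82 in samples 1, 2 and 3, a mean of 7.71 ± 0.09 (SD, n = 3), and sample 3 was highest. It passed the threshold in every sample, by 0.18, 0.19 and 0.42, but 35 to 48 of the silent probe sets had values as high. It was thus the 1 measured synthesis gene of the 3 above the threshold, and no gene of the 3 passed the raised threshold.

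Receptor genes divided more widely. Ptger4 (probe set 10427461), for the cAMP-raising prostaglandin E2 receptor EP4, had 10.94, 10.94 and 10.89 in samples 1, 2 and 3, a mean of 10.92 ± 0.03 (SD, n = 3). The distance to the threshold was 3.46, 3.48 and 3.49, and 0 of the 1267 silent probe sets reached its value on any array. The Ptger4 signal had a range of 0.05 over the samples, and 36.3% of all named genes had a range at least as wide. Ptger2 (probe set 10414271), for EP2, the other cAMP-raising receptor for prostaglandin E2, had 7.97 in all 3 samples. It passed the threshold by 0.49 to 0.57, and 26 to 29 silent probe sets had values as high. When the threshold was set at the 99th percentile of the silent probe sets, Ptger2 and Ptgis no longer passed, at -0.39 and -0.70 relative to it on their lowest arrays, while Ptger4 still passed by 2.54.

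Sequence before the start is shown for Ptger4, the prostanoid gene that passed every threshold tried, and for Ptgs2, the inducible gene that was not called. Each line gives the 250 bases before the RefSeq start, 5′ to 3′ on the gene's strand, with capitals marking matches to the GC box GGGCGG on either strand. Ptger4 lies at chr15:5244188-5244437 on the minus strand and Ptgs2 at chr1:150099781-150100030 on the plus strand of GRCm38.p6.
Ptger4: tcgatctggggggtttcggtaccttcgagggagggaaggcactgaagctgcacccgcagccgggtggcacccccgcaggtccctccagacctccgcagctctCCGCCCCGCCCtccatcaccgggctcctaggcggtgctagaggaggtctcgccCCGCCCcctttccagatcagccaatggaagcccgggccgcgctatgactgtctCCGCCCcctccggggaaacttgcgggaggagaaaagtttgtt
Ptgs2: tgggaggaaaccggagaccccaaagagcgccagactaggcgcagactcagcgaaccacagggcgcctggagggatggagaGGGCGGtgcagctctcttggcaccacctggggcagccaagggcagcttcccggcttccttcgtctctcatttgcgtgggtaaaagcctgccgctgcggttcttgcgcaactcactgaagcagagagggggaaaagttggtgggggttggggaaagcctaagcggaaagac
The Ptger4 stretch held 4 matches, of which the first 2 share 1 base, and the Ptgs2 stretch held 1. The number of matches did not follow the calls, since Ptger3 and Ptges, which were not called, had 3 and 2, while Ptgir, which was, had 2 and Ptger2 and Tbxa2r, also called, had 0. Of 32851 RefSeq stretches of the same 250 bases before a start 32.7% held at least 1. Neither stretch held the TATA box letters TATAAA on either strand, which 12.4% of the stretches held. The letters TGACG of a cAMP response element were in neither stretch and in 17.8% of the stretches. The E-box CACGTG was likewise in neither and in 6.02% of the stretches. Bases past the RefSeq start were not searched, and a gene may also start elsewhere. Absence from a stretch is therefore not absence from the promoter. These letters describe the stretches and show nothing about which factors bind there.

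The cAMP-lowering receptor gene Ptger3 (probe set 10497079), for EP3, had 6.41 in every sample. Relative to the threshold this was -1.07, -1.05 and -0.99 in samples 1, 2 and 3, and 309 to 313 silent probe sets had values at least as high. Kidney EP3 is best known from the thick ascending limb and collecting duct. The thick limb and macula densa markers Slc12a1, Nos1 and Cldn16 did not pass the threshold, and Umod, the fourth, passed at 9.51, 9.18 and 8.22 in samples 1, 2 and 3. Of 5 collecting duct markers 4 passed the threshold and 0 the raised threshold. The part of these cells in the Ptger3 value was not tested.

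Ptger1 (probe set 10573210), for the calcium-raising receptor EP1, had 8.89 in all 3 samples and passed the threshold by 1.41, 1.42 and 1.48. Of the silent probe sets 7 reached its value.

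Ptgir (probe set 10550394) encodes the prostacyclin receptor and had 8.61 in every sample, 1.13 to 1.21 above the threshold. The thromboxane receptor gene Tbxa2r (probe set 10365098) had 8.49 in every sample, 1.01 to 1.09 above it. For each of these genes 12 silent probe sets reached its value on every array. Tbxa2r passed the raised threshold in sample 1 by only 0.01, the narrowest pass of the 4, and Ptger2 and Ptgis were the genes between the thresholds. Of the 6 receptor genes 4 passed the raised threshold, which 32.7% of named genes did. With that threshold raised from the 99th percentile of the silent probe sets instead, Ptger4 was the 1 that passed, beside 17.2% of named genes.

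**Figure D2:**
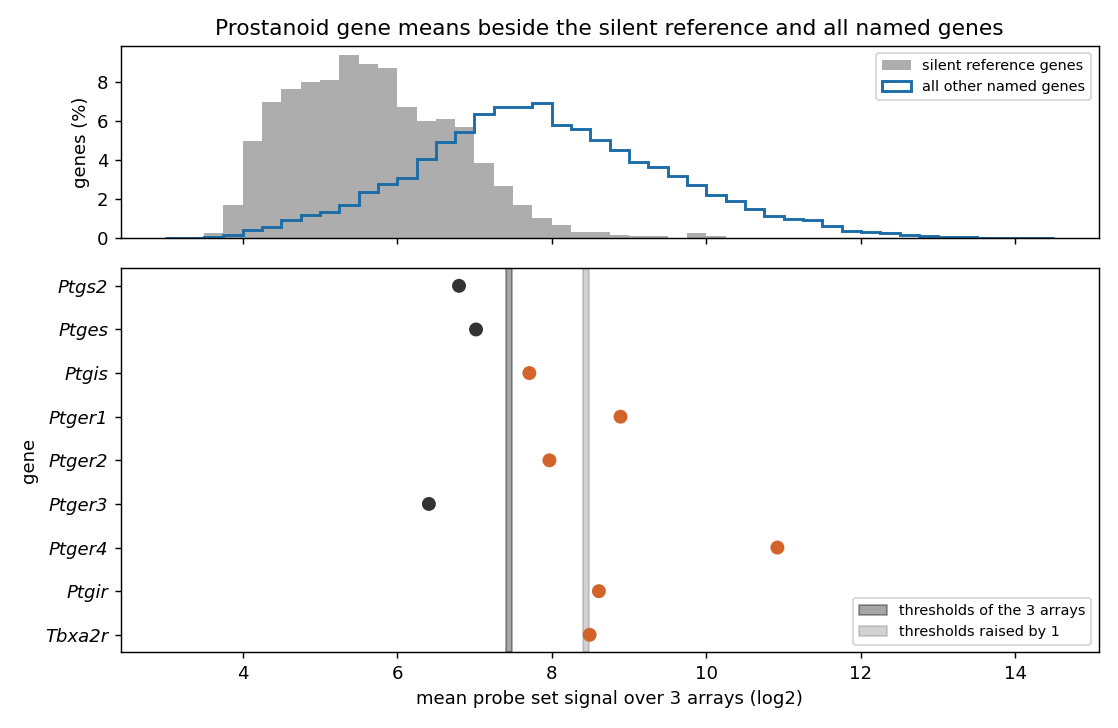
Upper panel: share of genes (%) by mean log2 signal over 3 arrays, for the silent reference genes (grey) and all other named genes (blue line). Lower panel: mean log2 signal of each prostanoid gene, orange where it passed the threshold on all 3 arrays and black where it did not, with dark and light bands for the thresholds of the 3 arrays and the raised thresholds. Ptger4, at 10.92, lies beyond all silent genes, and Ptger3, at 6.41, lies among them.

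Over the samples, the widest ranges among the prostanoid genes were 0.19 for Ptges and 0.17 for Ptgis. None of the 9 had a range of 0.5 or more, which with a share of 3.43% among the named genes is no result about these 9. Ptger1, Ptger2, Ptger3, Ptgir and Tbxa2r had 1 value on all 3 arrays, 5 of the 9 genes, against 51.1% of named genes. These genes could show no difference between samples, and an SD of 0 does not show that a receptor gene was measured without error. Over all 35557 probe sets 40.2% had 1 value on all 3 arrays, but the arrays were not copies of each other, since between 46.1% and 50.2% of values matched in a pair and the largest differences were 4.32, 5.57 and 3.47.

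Other genes of the pathway were looked up in lists of arachidonate release, synthesis, receptors, transport and breakdown, G proteins, effectors and leukotrienes. Of their 60 measured genes 31 passed the threshold and 17 the raised threshold, 51.7% and 28.3%, against 58.0% and 32.7% of all named genes. The same 58.0% and 32.7% are the background for every list below, those of cell type markers included. The 5 that were not measured, among them the adenylyl cyclase-coupling Gnas, are not analysed here.

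Upstream of the cyclooxygenases, 7 of 16 genes of arachidonate release passed the threshold and 1 the raised threshold. That gene was Pla2g4a, for the calcium-dependent cytosolic phospholipase A2 that frees arachidonic acid, with 10.91, 10.92 and 11.14 in samples 1, 2 and 3, a mean of 10.99 ± 0.13 (SD, n = 3). The secreted phospholipase gene Pla2g2a, which cytokines are known to induce in mesangial cells, had 6.39 in every sample and did not pass. Mgll, for the lipase that releases arachidonic acid from an endocannabinoid, had 8.31 ± 0.13 and passed the threshold by 0.72 to 1.03.

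Among other synthases 4 of 7 passed the threshold and 3 the raised threshold. Ptges3, whose product is both a cytosolic prostaglandin E synthase and a co-chaperone of Hsp90, had 12.06, 12.09 and 12.23 in samples 1, 2 and 3, a mean of 12.13 ± 0.09 (SD, n = 3), and its other probe sets had means of 11.56 and 11.70. Prxl2b, for prostamide and prostaglandin F synthase, had 8.94 ± 0.09. Cbr1, for a carbonyl reductase that can convert prostaglandin E2 to prostaglandin F2alpha, had 8.70 in every sample. Ptgds, for the lipocalin-type prostaglandin D synthase, had 7.66 ± 0.04 and was within 0.22 of the threshold. The thromboxane synthase gene Tbxas1 at 6.90, the second membrane-bound prostaglandin E synthase gene Ptges2 at 6.80 and the prostaglandin D synthase gene Hpgds at 5.96 ± 0.02 did not pass.

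The remaining prostanoid receptor genes did not pass in any sample. Ptgdr and Ptgdr2, for the prostaglandin D2 receptors, had 7.23 ± 0.06 and 7.09, and the prostaglandin F2alpha receptor gene Ptgfr had 7.08. The receptor genes above the threshold were thus those for prostaglandin E2, prostacyclin and thromboxane A2, with Ptger3 as the exception among them.

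For transport and breakdown 3 of 5 passed the threshold and 2 the raised threshold. Slco2a1, for the transporter that takes up prostaglandins before they are broken down, had 11.60, 11.70 and 11.76 in samples 1, 2 and 3, a mean of 11.69 ± 0.08 (SD, n = 3). Ptgr2, for a reductase that acts on 15-keto-prostaglandin E2, had 9.92 ± 0.04, and its relative Ptgr1 had 7.88 ± 0.05, within 0.54 of the threshold. Hpgd, for the dehydrogenase that starts prostaglandin breakdown, had 6.70 in every sample and did not pass, nor did the efflux transporter gene Abcc4 at 6.76 ± 0.04.

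All 7 measured G protein alpha subunit genes passed the threshold, 6 of them the raised threshold. For the calcium pathway of EP1 and the thromboxane receptor, Gnaq had 9.99 ± 0.05 and Gna11 10.35 ± 0.03. Gna13, through which the thromboxane receptor can also signal, had 10.63 ± 0.03, while Gna12 at 8.44 passed only the lower threshold. The cAMP-lowering subunits Gnai1, Gnai2 and Gnai3, which EP3 uses, had 10.88 ± 0.15, 12.06 ± 0.09 and 11.06 ± 0.04.

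Of 13 effector genes 8 passed the threshold and 5 the raised threshold. The adenylyl cyclase genes Adcy6 at 10.59, Adcy4 at 9.08 and Adcy9 at 8.77 ± 0.10 were among the 5, with the phospholipase C genes Plcb3 at 9.84 ± 0.03 and Plcb2 at 8.78 ± 0.16. Among the lipoxygenase and leukotriene genes 2 of 9 passed the threshold, Lta4h at 7.67 ± 0.10 and Ltb4r1 at 7.73, and none the raised threshold. The 5-lipoxygenase gene Alox5 at 6.86 and its activating protein gene Alox5ap at 7.33 ± 0.02 did not pass.

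**Figure D3:**
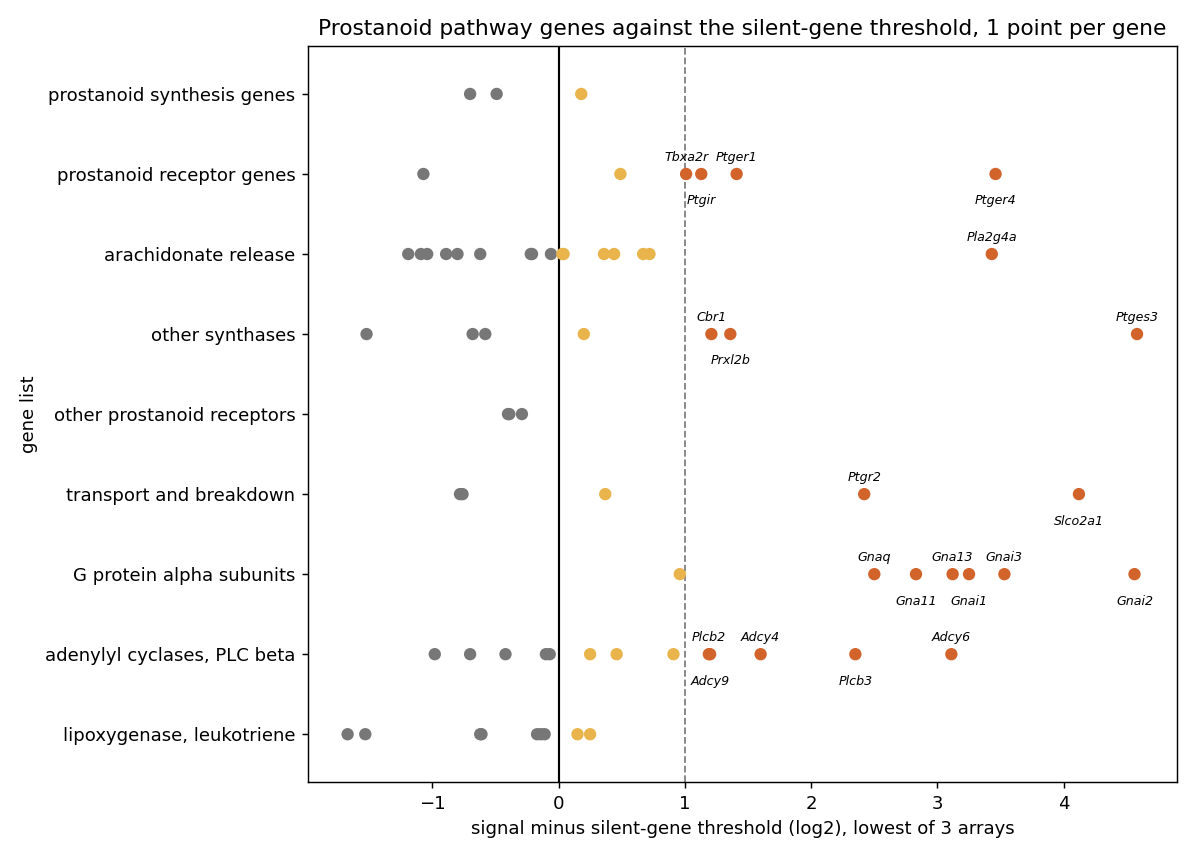
Distance of each measured gene from the silent-gene threshold (horizontal axis, log2, lowest of 3 arrays) by gene list (vertical axis); grey points lie under the threshold, yellow points between 0 and 1 above it, and orange points with names more than 1 above it. Ptger4, Pla2g4a, Ptges3 and Slco2a1 lie more than 3 above the threshold, and no lipoxygenase or leukotriene gene lies more than 1 above it.

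Markers of the cell types that the sorted fraction could hold were measured beside these genes. All 7 mesangial markers passed the raised threshold. Of 10 endothelial markers 10 passed the threshold and 6 the raised threshold, with a summed log2 signal of 91.4, 90.7 and 91.9 in samples 1, 2 and 3. Those above the raised threshold were Eng at 11.17 ± 0.17, Tek at 10.78 ± 0.12, Ehd3 at 10.42 ± 0.24, Emcn at 10.38 ± 0.19, Plvap at 9.35 ± 0.03 and Flt1 at 8.82 ± 0.18. The other markers, Pecam1 at 7.61 ± 0.05, Cdh5 at 7.66 ± 0.05, Kdr at 7.57 and Tie1 at 7.55, were within 0.29 of the threshold. Of 5 smooth muscle markers 4 passed the raised threshold, all except Cnn1, with a summed log2 signal of 47.4, 47.2 and 48.5 in samples 1, 2 and 3. Both sums were highest in sample 3, where Ptgis and Slco2a1 were also highest. Single endothelial markers did not all follow their sum. Flt1, Emcn and Ehd3 were highest in sample 3. Eng was highest in sample 1, at 11.32, and Plvap in sample 2, at 9.39. Tek was highest in sample 1, at 10.9, and lowest in sample 3, at 10.67. Kdr and Tie1 had 1 value on all 3 arrays, and Pecam1 and Cdh5 had 7.64 and 7.69 in both sample 2 and sample 3. The sums were lowest in sample 2, where Ptgis had 7.65 against 7.66 in sample 1. Slco2a1 was lowest in sample 1, at 11.60, and Ptgir and Tbxa2r had 1 value on all 3 arrays. Endothelial cells express Ptgis and Slco2a1, and smooth muscle expresses Ptgis, Ptgir and Tbxa2r. The part of RNA from these cells in the values was not tested. For Ptger4 and Pla2g4a, the part of RNA from any cells other than mesangial cells was not tested either.

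Of 4 measured platelet markers 1 passed the threshold, Itga2b at 7.50, while Pf4, Ppbp and Gp9 did not, and the summed log2 signal ranged from 28.4 to 28.7. Of 8 macrophage markers 4 passed the threshold and 1 the raised threshold, Mrc1 at 11.81 ± 0.10, while Adgre1, Csf1r, Lyz2 and Ptprc did not pass, with a summed log2 signal from 59.7 to 60.1. Of 5 collecting duct markers 4 passed the threshold and 0 the raised threshold. Scnn1g did not pass, and the summed log2 signal ranged from 37.3 to 37.5. The collecting duct expresses Ptger1, and its part in the Ptger1 value was not tested. Of 6 proximal tubule markers 2 passed the threshold, of 5 podocyte markers 3 and of 4 fibroblast markers 3. The raised threshold was passed by 0, 1 and 2 of them. These were the podocyte marker Wt1 at 10.15 ± 0.08 and the fibroblast markers Pdgfra at 11.16 ± 0.13 and Col1a1 at 8.59. The tubule markers Umod, Kap, Slc34a1 and Slc12a1 were lowest in sample 3, Kap at 8.44, 8.51 and 7.17 in samples 1, 2 and 3. The other thick limb and proximal tubule markers, Lrp2, Cubn, Slc5a2, Slc22a6, Nos1 and Cldn16, had 1 value on all 3 arrays. Ptges was lowest in sample 3 as well, at 6.91, but it lay under the threshold in every sample, with a range of 0.19. Slc12a1 also lay under the threshold in every sample, with a range of 0.06. The part of tubule RNA in the Ptges values was not tested. In such bulk RNA fewer cells of a type and less RNA per cell cannot be told apart.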

How the data were processed

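The authors deposited log2 probe set signals of 3 Affymetrix mouse gene arrays, 1 per sample, for which the submitters' processing notes name Affymetrix Expression Console. RNA was amplified for 1 round with the WT-Ovation Pico system and labelled with biotin, per the labels' protocols. Its version, the background correction and how probes were summarised are not given in the sources read for this work. The log2 scale was inferred from the highest value, 14.39, and the array medians were 7.53, 7.56 and 7.54, while centring beyond that is unknown. Values were used as deposited. The number of arrays limits the precision.

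The platform annotation listed 23410 of 35557 probe sets, of which 21789 had 1 symbol and 1621 several, and 12147 stay unnamed. Symbols of 21698 probe sets were updated by Entrez number with the RefSeq table of GRCm38.p6. Where a gene had several, its probe set of highest mean was taken. Calls against the silent families were made with pandas 2.3.3 and numpy 2.4.6, and the rule was run on simulated data. The simulation drew from the silent probe sets and used a large offset. It therefore checks the code and not the calls of genes near the threshold. No test between groups was run. Alternatives changed the percentile, the reference families, the probe set, the centring, the call over arrays, the range and the arrays used. All measured prostanoid genes were named. By rule, any gene of lists of up to 8 genes could be named, and of longer lists those above the raised threshold or under the plain one; not all were. Mgll, Lta4h, Ltb4r1, Pecam1, Cdh5, Kdr and Tie1 fall outside the rule and were named after their values were seen. Genes and lists were chosen with earlier results of these data known. Promoter sequences are from RefSeq, GRCm38.p6; 8 of the 10 genes had an entry.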

Additional observations from a re-analysis of the deposited data

How the results depend on the processing

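The count of prostanoid genes above the threshold stayed at 6 with the 90th percentile, olfactory receptors alone, the mean of the arrays, other probe set rules, centred arrays or without each replicate in turn, and was 4 at the 99th percentile. Several of these alternatives could not lower it. Each gene had 1 probe set, and centring moves values and thresholds together. The 90th percentile, the mean of the arrays or fewer arrays can only add calls. The count above the raised threshold stayed at 4 under the same alternatives except the 99th percentile, where it was 1, Ptger4, beside 17.2% of named genes. There Ptgis at -0.70 and Ptger2 at -0.39 fell under the plain threshold, which is higher by construction. Pathway genes above the threshold numbered 19 there, beside 35.3% of named genes. No prostanoid gene had a range of 0.5 or more, nor of 0.3 or more. Without sample 1, 2 or 3 the pathway count above the raised threshold ranged from 17 to 18. No paired analysis was possible because there is 1 group. Signal near the silent probe sets limits what can be said of Ptgs2, Ptges, Ptgis, Ptger2 and Ptger3.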
